A study of Mus musculus with 12 samples.

Results

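Collagen IV, lysyl oxidase, fibronectin and the enzymes that modify collagen were followed through 10 genes in mouse bone marrow-derived macrophages, out of 24421 genes in the tables. The genes were Col4a1, Col4a2, Lox, Fn1, P4ha1, P4ha2, Plod1, Plod2, Plod3 and Serpinh1. They were chosen by their function and symbol, and no expression value enters that rule. The list was drawn up with results of these libraries known, however, the difference in Lox between siRNAs after LPS among them. That difference is therefore described here without a test, and the other adjusted p-values are those of the fit over all genes, not independent support for the choice of genes.

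The study compared 4 groups of 3 RNA-seq libraries each, all from male C57BL/6J mice aged 8 weeks. Macrophages had received an siRNA against Ehd1 (siEhd1) or a control siRNA (siControl). They were treated with lipopolysaccharide (LPS, the M1 state of the labels) or left resting (M0). The groups were LPS-treated siEhd1, LPS-treated siControl, resting siEhd1 and resting siControl. Every group thus had an siRNA, and no library without one was analysed here. Ehd1 encodes an endocytic recycling protein, and LPS is a bacterial cell wall component that activates Toll-like receptor signalling. The labels do not say whether the 3 libraries of a group came from separate animals or cultures, so the p-values speak only for the spread among these libraries, which may be technical.

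Collagen IV forms the sheet-like network of basement membranes, the thin matrix under epithelia and around vessels and fat cells. Col4a1 and Col4a2 encode the chains of its most widespread form. In the endoplasmic reticulum, prolyl 4-hydroxylases (catalytic subunits P4ha1 and P4ha2) and lysyl hydroxylases (Plod1, Plod2 and Plod3) modify the chains, and the chaperone Serpinh1 binds folded collagen on its way out. Outside the cell, lysyl oxidase (Lox) prepares collagen and elastin for cross-linking, and fibronectin (Fn1) is a matrix glycoprotein bound by integrins. Macrophages are not the main source of most of these proteins in tissue, but they make several of them.

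The 12 libraries held 18572725 to 22545272 counts, with 14119 to 14753 genes detected. All 10 genes of the list were among the 12164 genes that passed the filter on low counts and were tested. Levels are given as CPM, the counts scaled by library size and TMM factors. Ehd1 itself averaged 301.8 ± 18.2 CPM in LPS-treated siEhd1 cells and 619.7 ± 64.5 CPM in LPS-treated siControl cells, and 31.5 ± 2.35 CPM in resting siEhd1 cells and 53.25 ± 1.18 CPM in resting siControl cells (SD, n = 3 each). All 10 macrophage markers averaged at least 5 CPM in every group, and their summed level lay between 25050 and 44230 CPM. Among markers of other cells, 14 fibroblast and stromal genes summed to 3.80 to 28.75 CPM and 11 endothelial genes to 107.6 to 295.3 CPM. Of 7 megakaryocyte and platelet genes, which summed to 10.79 to 621.8 CPM, 2 had no count in any library. The stromal marker Pdgfra had 0 to 2 counts per library, while Dcn reached 7.96 CPM after LPS. The endothelial markers Tek and Emcn had 0 or 1 count and Tie1 0 to 4 counts per library, while Vwf averaged 30.81 to 174 CPM, Eng 48.52 to 91.82 CPM and Kdr 14.62 to 25.73 CPM over the 4 groups. Pecam1 averaged 5.39 CPM in LPS-treated siEhd1 cells and 6.68 CPM in LPS-treated siControl cells.

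The promoters of both collagen IV genes are shown because these genes share a start region and had similar siRNA effects in resting cells. On GRCm38 (mm10), Col4a1 lies on the minus strand of chromosome 8 from 11198423 to 11312826, and Col4a2 on the plus strand from 11312805 to 11449287. Their annotated start sites were 21 bases apart, and 22 exon bases were common to both genes on opposite strands. The windows below run from 250 bases before to 50 bases after each start (RefSeq, GRCm38.p6, chr8:11312777-11313076 on the minus strand for Col4a1 and chr8:11312555-11312854 on the plus strand for Col4a2), and 78 bases belong to both. Capitals mark the GC box core GGGCGG and the CCAAT box, each on either strand.
Col4a1: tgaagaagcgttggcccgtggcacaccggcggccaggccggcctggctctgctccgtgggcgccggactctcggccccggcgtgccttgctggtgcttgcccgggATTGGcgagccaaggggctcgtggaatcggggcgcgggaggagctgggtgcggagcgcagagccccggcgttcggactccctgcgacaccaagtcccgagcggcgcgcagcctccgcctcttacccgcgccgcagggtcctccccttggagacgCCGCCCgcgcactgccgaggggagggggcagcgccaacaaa
Col4a2: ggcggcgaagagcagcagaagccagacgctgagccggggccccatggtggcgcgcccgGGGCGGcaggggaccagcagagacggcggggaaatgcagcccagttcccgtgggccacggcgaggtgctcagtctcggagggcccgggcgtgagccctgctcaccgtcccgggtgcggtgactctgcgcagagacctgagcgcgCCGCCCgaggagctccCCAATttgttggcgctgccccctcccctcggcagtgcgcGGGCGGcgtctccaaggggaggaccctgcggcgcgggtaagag
The window of Col4a1 held GGGCGG 1 time and CCAAT 1 time, and that of Col4a2 held them 3 times and 1 time. Among 32851 mouse promoter windows of the same length, 35.7% held GGGCGG and 37.4% held CCAAT. These are letter matches and do not show that a factor binds.

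In resting macrophages, both collagen IV genes were higher with siEhd1. Col4a1 stood at 7.56, 9.10 and 9.67 CPM in resting siEhd1 libraries, against 2.38, 4.08 and 3.29 CPM in resting siControl libraries. Col4a2 stood at 13.07, 16.48 and 17.33 CPM in resting siEhd1 libraries, against 4.53, 6.14 and 5.53 CPM in resting siControl libraries. Every resting siEhd1 library lay above every resting siControl library for both genes. Col4a1 rose 2.697-fold (log2 fold change 1.43, SE 0.25, edgeR adjusted p = 0.000871). Col4a2 rose 2.89-fold (1.53, SE 0.12, adjusted p = 2.65e-08). These are bulk samples, in which fewer cells of a type and less RNA per cell cannot be told apart.

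After LPS, neither collagen IV gene passed the test between siRNAs. Col4a1 had 1.67, 2.32 and 2.696 CPM in LPS-treated siEhd1 libraries, against 3.31, 2.97 and 1.19 CPM in LPS-treated siControl libraries. Col4a2 had 9.19, 10.55 and 9.69 CPM in LPS-treated siEhd1 libraries, against 9.27, 11.25 and 10.04 CPM in LPS-treated siControl libraries. The groups overlapped for both genes. The log2 fold change was -0.16 for Col4a1 (95% interval -0.89 to 0.56, adjusted p = 0.841) and -0.05 for Col4a2 (-0.31 to 0.21, adjusted p = 0.859). The siEhd1 effect after LPS minus that in resting cells was -1.58 for Col4a2 (SE 0.18, adjusted p = 1.43e-05), a call kept under all 19 alternative settings. For Col4a1 it was -1.59 (SE 0.42, adjusted p = 0.0421), and this call was lost in 13 of 19 alternatives (adjusted p 0.000413 to 0.115). It was lost without the low-count filter, with either replicate block and without any 1 library other than LPS-treated siControl replicate 3 or resting siControl replicate 2.

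The response of Col4a2 to LPS differed between siRNAs by that same test. With siEhd1, Col4a2 averaged 9.81 ± 0.69 CPM after LPS and 15.63 ± 2.26 CPM in resting cells, and fell (log2 -0.67, SE 0.12, adjusted p = 3.68e-05). With siControl, it averaged 10.19 ± 0.997 CPM after LPS and 5.40 ± 0.81 CPM in resting cells (SD, n = 3 each), and rose (0.91, SE 0.13, adjusted p = 3.33e-06). Col4a1 fell with siEhd1 (-1.99, SE 0.27, adjusted p = 2.26e-05) and did not pass the test with siControl (-0.39, SE 0.30, interval -1.05 to 0.27, adjusted p = 0.272). LPS-treated and resting libraries were deposited in separate tables and no label names a processing batch, so LPS and any difference between those sets of libraries cannot be told apart. This holds for every LPS comparison that follows.

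The balance between the collagen IV chains differed between states. Col4a1 counts were 18.2%, 22.0% and 27.8% of Col4a2 counts in LPS-treated siEhd1 libraries, and 35.6%, 26.4% and 11.8% in LPS-treated siControl libraries. They were 57.8%, 55.2% and 55.8% in resting siEhd1 libraries, and 52.4%, 66.4% and 59.5% in resting siControl libraries. Every LPS-treated library lay below every resting library, and the siRNA groups overlapped within each state. These shares are a description without a test.

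**Figure D1:**
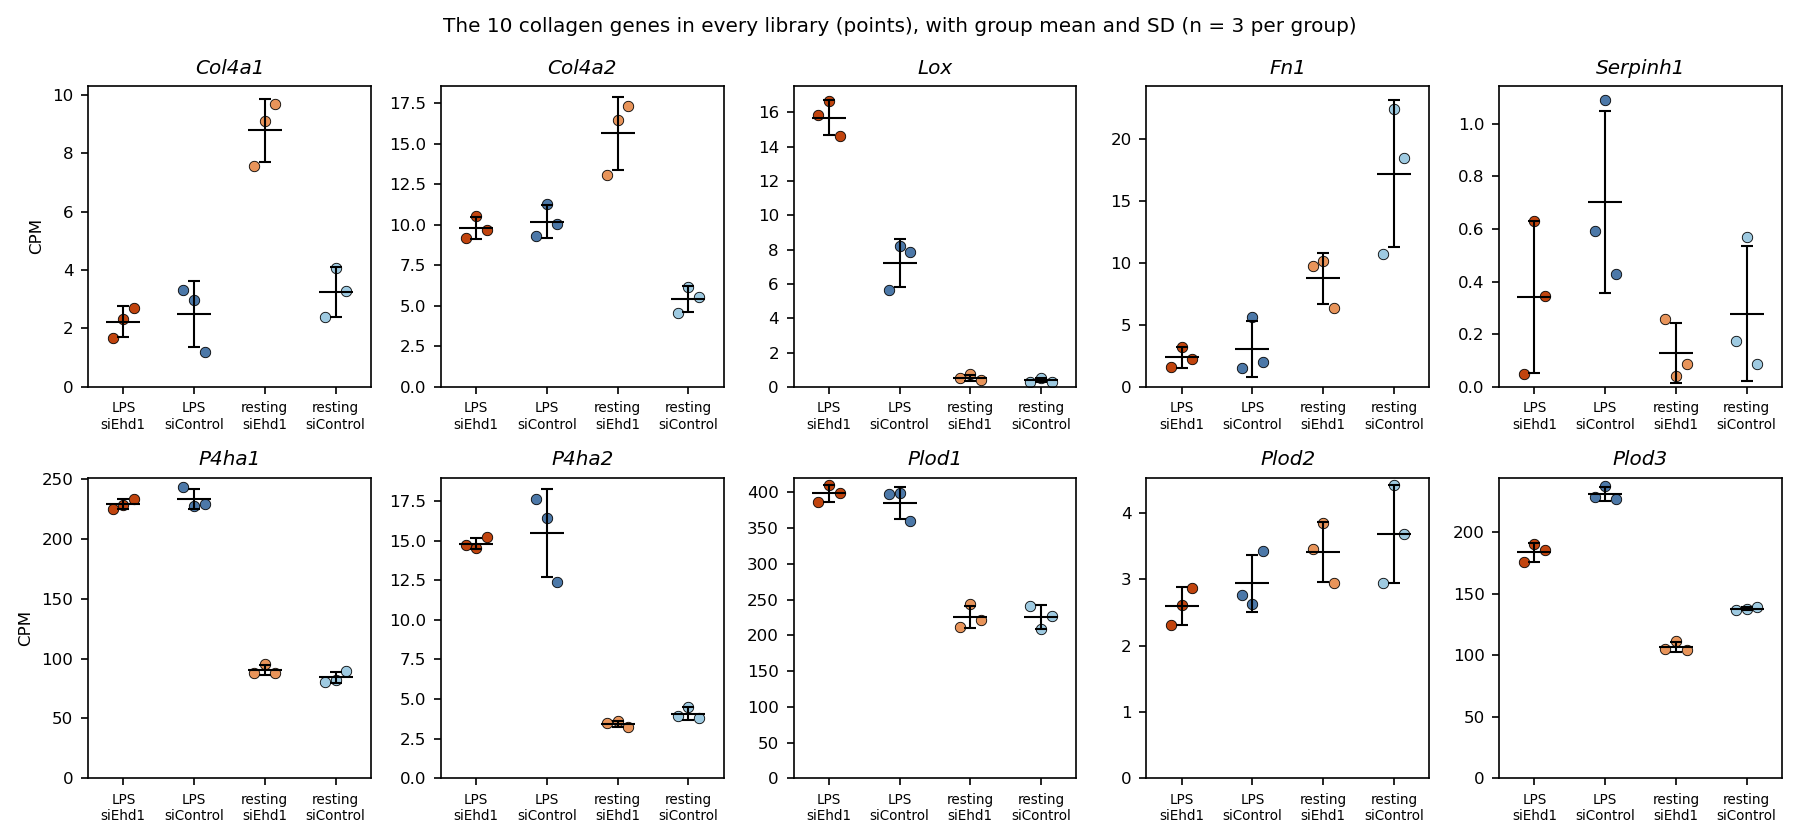
CPM of the 10 genes in each library (points, 3 per group), with the group mean and SD, in LPS-treated siEhd1, LPS-treated siControl, resting siEhd1 and resting siControl cells. Col4a1 and Col4a2 are highest in resting siEhd1 cells, and Lox, P4ha1, P4ha2, Plod1 and Plod3 are higher in all 6 LPS-treated libraries than in all 6 resting ones.

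**Figure D2:**
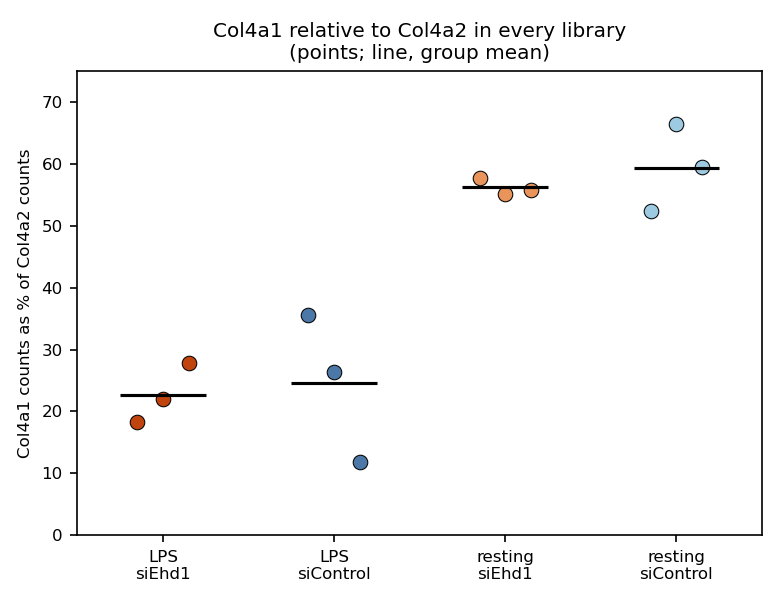
Col4a1 counts as a percentage of Col4a2 counts in each library (points), with the mean of each group (line). The 6 LPS-treated libraries lie between 11.8% and 35.6%, and the 6 resting libraries between 52.4% and 66.4%.

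Over the 10 genes, 2 were called higher with siEhd1 in resting cells (14.0% of all genes tested were) and 1 was called lower (14.2%, and 28.2% in either direction). The groups did not overlap for 2 higher genes, against 21.4% of all genes, and for 3 lower genes, Fn1, P4ha2 and Plod3, against 22.7%. After LPS, with Lox left untested, 0 of the other 9 genes were called higher (4.44% of all genes) and 1 lower, Plod3 (4.10%, and 8.54% in either direction). The groups did not overlap for Plod3, which was lower, against 12.6% of all genes in that direction. Lox is left out here too, since its difference was known beforehand. For the difference between states, 0 of those 9 were called higher (3.12%) and 2 lower (2.93%, and 6.04% in either direction). Since the resting and LPS-treated comparisons enter that difference, the counts are not separate evidence. With 10 genes, counts of 1 to 3 in the comparisons within a state lie near the shares over all genes. The 2 genes lower for the difference were Col4a1 and Col4a2, beside the share of 2.93%. They share a start region, and the list was drawn up with results of these libraries known. Their count is therefore no evidence of an excess over that share. The Col4a1 call was also lost in 13 of 19 alternatives. The median log2 fold change over the 10 genes, Lox included, was -0.06 in resting cells and -0.11 after LPS, against -0.02 and -0.01 over all genes tested.

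Plod3 was the member that fell with siEhd1 in both states. It encodes a lysyl hydroxylase that can also attach sugars to hydroxylysine. It had 175.4, 190.4 and 185.5 CPM in LPS-treated siEhd1 libraries, against 228.5, 237.7 and 227.0 CPM in LPS-treated siControl libraries. In resting cells it had 104.8, 111.3 and 104.2 CPM with siEhd1, against 136.9, 137.7 and 139.0 CPM with siControl. In each state every siEhd1 library was below every siControl library. Plod3 stood at 79.5% of the siControl level after LPS (log2 -0.33, SE 0.05, adjusted p = 0.000201) and at 77.4% in resting cells (-0.37, SE 0.05, adjusted p = 1.31e-05). The effects in the LPS-treated and resting states differed by 0.04 (interval -0.11 to 0.18, adjusted p = 0.834). Both calls were kept under all alternatives.

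The 3′ UTR of Plod3 held the letters GCCTTGT, which were searched for because earlier results of these data had found them often in genes lower with siEhd1. Plod3 occupies bases 136987019 to 136996648 of chromosome 5, plus strand (GRCm38), and the match began at base 37 of a 3′ UTR of 387 bases, read in the GENCODE transcript and shown here in capitals with the bases around it.
Plod3: tctgccactgtGCCTTGTtggacaacctg
None of the other 9 genes held it in the 3′ UTR of the transcript searched, and 1532 of 11239 tested genes with an annotated 3′ UTR did (13.6%). The letters came from genes lower with siEhd1 in these same data, and Plod3 is such a gene. The match is therefore a description and no separate support, and its part in the lower level was not tested. Plod3 exons also overlap those of Znhit1 on the opposite strand over 529 bases (16.13% of Plod3 exon bases), and the strand setting of the counting is not given in the sources used here. Znhit1 had log2 fold changes with siEhd1 of -0.03 after LPS (adjusted p = 0.821) and -0.10 in resting cells (adjusted p = 0.28).

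The other lysyl hydroxylases did not pass the test between siRNAs in either state. Plod1 averaged 398.9 ± 12 CPM in LPS-treated siEhd1 cells and 385.5 ± 22.1 CPM in LPS-treated siControl cells (log2 0.05, adjusted p = 0.727). In resting cells it averaged 225.9 ± 15.9 CPM with siEhd1 and 225.8 ± 16.2 CPM with siControl, with an interval of the log2 fold change from -0.13 to 0.13. Plod2, which encodes the enzyme acting on collagen telopeptides, lay between 2.31 and 4.43 CPM in all 12 libraries. Its log2 fold changes with siEhd1 were -0.18 after LPS (interval -0.58 to 0.21, adjusted p = 0.635) and -0.11 in resting cells (-0.46 to 0.23, adjusted p = 0.659).

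Both prolyl 4-hydroxylase subunits were higher after LPS with either siRNA. P4ha1 had 225.4, 228.7 and 233.6 CPM in LPS-treated siEhd1 libraries, 243.2, 227.6 and 229.1 CPM in LPS-treated siControl libraries, 87.81, 95.61 and 88.14 CPM in resting siEhd1 libraries and 80.65, 82.35 and 89.88 CPM in resting siControl libraries. It rose with LPS by 1.34 on the log2 scale with siEhd1 (SE 0.06, adjusted p = 8.98e-15) and by 1.47 with siControl (SE 0.06, adjusted p = 2e-15). P4ha2 averaged 14.8 ± 0.353 CPM in LPS-treated siEhd1 cells, 15.48 ± 2.75 CPM in LPS-treated siControl cells, 3.43 ± 0.178 CPM in resting siEhd1 cells and 4.08 ± 0.386 CPM in resting siControl cells. It rose with LPS by 2.11 with siEhd1 (SE 0.13, adjusted p = 7.61e-12) and by 1.92 with siControl (SE 0.13, adjusted p = 2.07e-11). Neither passed the test between siRNAs. For P4ha1 the log2 fold changes with siEhd1 were -0.03 after LPS (interval -0.14 to 0.09, adjusted p = 0.842) and 0.10 in resting cells (adjusted p = 0.178). For P4ha2 they were -0.06 after LPS (adjusted p = 0.804) and -0.25 in resting cells (adjusted p = 0.23), where its groups did not overlap.

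The promoters of both subunit genes are shown because they moved together with LPS and because P4HA genes are known targets of hypoxia-inducible factor. Capitals mark ACGTG and GCGTG, cores of the sequence that factor recognises, on either strand (RefSeq, GRCm38.p6, chr10:59323046-59323345 on the plus strand for P4ha1 and chr11:54100674-54100973 on the plus strand for P4ha2). None of the capitalised matches overlaps another.
P4ha1: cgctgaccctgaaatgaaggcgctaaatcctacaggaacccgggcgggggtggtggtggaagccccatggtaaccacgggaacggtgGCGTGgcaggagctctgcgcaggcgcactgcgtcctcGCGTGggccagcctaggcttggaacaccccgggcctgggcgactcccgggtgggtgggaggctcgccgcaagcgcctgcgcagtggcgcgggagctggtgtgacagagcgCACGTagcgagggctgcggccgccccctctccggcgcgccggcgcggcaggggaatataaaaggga
P4ha2: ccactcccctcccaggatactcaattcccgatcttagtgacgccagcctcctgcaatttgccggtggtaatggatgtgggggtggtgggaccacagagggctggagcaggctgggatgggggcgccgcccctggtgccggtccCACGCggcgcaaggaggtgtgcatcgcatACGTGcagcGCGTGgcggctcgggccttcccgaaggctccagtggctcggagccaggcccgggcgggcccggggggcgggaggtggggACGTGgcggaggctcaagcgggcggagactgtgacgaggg
ACGTG occurred 1 time in the P4ha1 window and 2 times in the P4ha2 window, and GCGTG 2 times in each. All 7 genes with a window held at least 1 of these cores. Plod3 held ACGTG 1 time and GCGTG 3 times, Plod1 held GCGTG 2 times, Col4a1 and Col4a2 held GCGTG 1 time each and Serpinh1 held ACGTG 1 time, so the matches are not particular to the prolyl hydroxylase genes. Of the 32851 windows, 19.6% held ACGTG, 32.4% held GCGTG and 43.8% held either. Whether the factor acts here was not tested.

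The remaining lysyl hydroxylases split in their response to LPS. Plod1 rose by 0.82 with siEhd1 (SE 0.06, adjusted p = 3.26e-10) and by 0.77 with siControl (SE 0.06, adjusted p = 8.14e-10). Plod3 rose by 0.78 with siEhd1 (SE 0.05, adjusted p = 1.37e-11) and by 0.74 with siControl (SE 0.05, adjusted p = 2.51e-11). Plod2 averaged 2.60 CPM in LPS-treated siEhd1 cells and 3.41 CPM in resting siEhd1 cells, and 2.94 CPM in LPS-treated siControl cells and 3.69 CPM in resting siControl cells. It did not pass the test with siEhd1 (-0.40, adjusted p = 0.0575), where its groups did not overlap, or with siControl (-0.33, adjusted p = 0.102). When libraries were scaled by their totals alone, Plod2 passed with both siRNAs (adjusted p = 0.00563 with siEhd1 and 0.0137 with siControl), and that scaling moved the median of all genes to -0.24 with siEhd1 and -0.21 with siControl. With siEhd1 it also passed without resting siEhd1 replicate 3 (0.0332) or resting siControl replicate 1 (0.0439), and with siControl without LPS-treated siControl replicate 3 (0.0439) or resting siControl replicate 1 (0.0274).

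Lox was near the limit of detection in resting macrophages and far higher after LPS. The gene lies on chromosome 18 from 52516067 to 52529867 on the minus strand (GRCm38). It had 15.82, 16.65 and 14.63 CPM in LPS-treated siEhd1 libraries, against 5.62, 8.23 and 7.85 CPM in LPS-treated siControl libraries. In resting cells it had 0.51, 0.73 and 0.38 CPM with siEhd1, against 0.31, 0.53 and 0.31 CPM with siControl, from 7 to 17 counts per library. All LPS-treated libraries lay far above all resting ones, and after LPS every siEhd1 library lay above every siControl library. LPS-treated cells had 28.8 times the resting level with siEhd1 (log2 4.85) and 18.7 times with siControl (4.23). These ratios rest on 7 to 17 counts in each resting library and are given without a test. Among LPS-treated libraries, Lox was 2.17-fold higher with siEhd1 than with siControl (log2 1.12). In resting cells its log2 fold change was 0.50 (SE 0.39, adjusted p = 0.363). The effect after LPS exceeded it by 0.62 (SE 0.425), and by 0.318 to 0.887 when 1 library was left out. Whether the effect of siEhd1 on Lox differs between states was not tested.

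A stromal gene moved with Lox. Dcn, which encodes the collagen-binding proteoglycan decorin and is one of the stromal markers, averaged 7.12 ± 0.8 CPM in LPS-treated siEhd1 cells and 3.65 ± 1.4 CPM in LPS-treated siControl cells (log2 0.96, adjusted p = 0.0133), and had 0 to 3 counts in each resting library. It was the only 1 of 7 tested stromal markers called between siRNAs after LPS, where 4.44% of all genes were called higher and 4.10% lower. The Dcn call was lost without LPS-treated siEhd1 replicate 1 and with the replicate block within each table. The summed stromal level overlapped between siRNAs there, at 15.62 to 23.09 CPM with siEhd1 and 11.74 to 28.75 CPM with siControl. In the LPS-treated siControl library with the highest stromal sum, replicate 2, Lox was 8.23 CPM, below all siEhd1 libraries. Over the 12 libraries, the genes whose log2(CPM + 1) values were most like those of Lox were Ccl12 (Pearson r 0.9953), Dcn (0.9941) and Ccl4 (0.9933). These correlations follow the difference between states and carry no test, and the part of stromal cells in the Lox level was not tested.

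**Figure D3:**
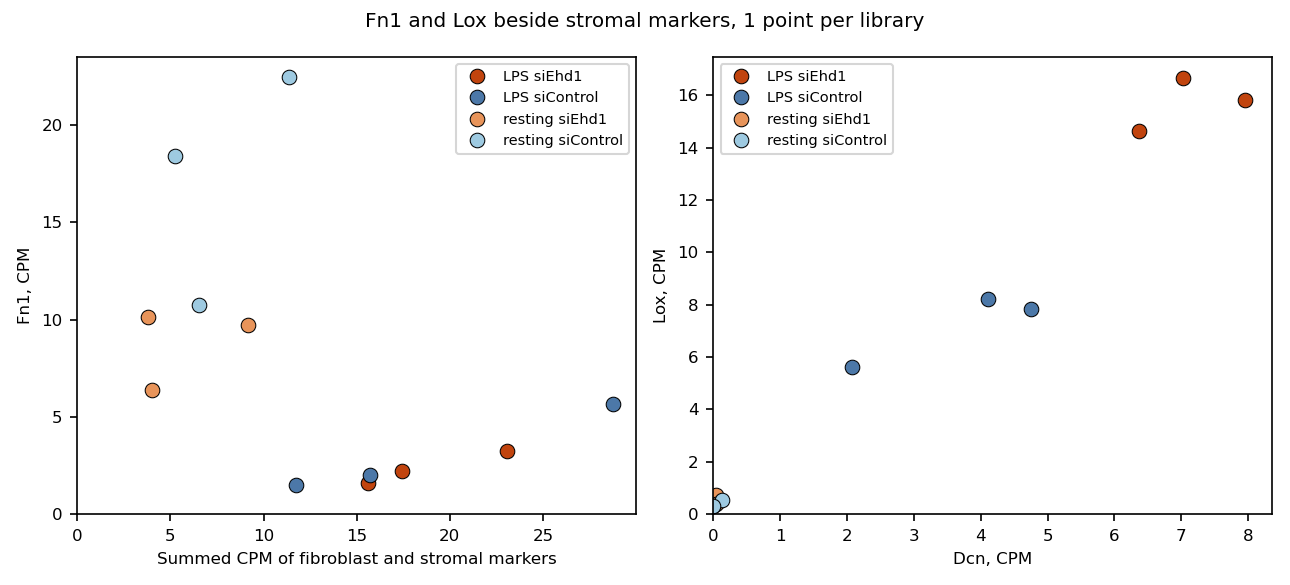
Left, Fn1 against the summed CPM of 14 fibroblast and stromal markers. Right, Lox against Dcn in CPM, with 1 point per library and colours for the 4 groups. Lox and Dcn are both highest in the 3 LPS-treated siEhd1 libraries. In LPS-treated siControl cells, Fn1 and the stromal sum are both highest in replicate 2, at 5.65 and 28.75 CPM.

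Fibronectin was lower after LPS with both siRNAs. Fn1 had 1.62, 3.24 and 2.24 CPM in LPS-treated siEhd1 libraries, 1.48, 5.65 and 2.00 CPM in LPS-treated siControl libraries, 9.74, 10.12 and 6.39 CPM in resting siEhd1 libraries and 10.74, 22.45 and 18.43 CPM in resting siControl libraries. It fell with LPS by 1.88 on the log2 scale with siEhd1 (SE 0.53, adjusted p = 0.0116) and by 2.50 with siControl (SE 0.47, adjusted p = 0.00112). Without LPS-treated siControl replicate 2, the siControl value was -3.30 and was still called. In resting cells all siEhd1 libraries were below all siControl libraries, but Fn1 did not pass the test (-0.98, SE 0.39, adjusted p = 0.0993). It passed with limma-voom (adjusted p = 0.0131) and without LPS-treated siControl replicate 2 (adjusted p = 0.0416). That library and resting siControl replicate 2 had the highest Fn1 of their groups and also the most Col1a1 counts, 145 against 12 and 34, and 65 against 16 and 11. In resting siEhd1 cells, replicate 1 had the most Col1a1 counts, 56 against 7 and 2, but not the highest Fn1. The part of stromal RNA in these values was not tested.

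The collagen chaperone gene Serpinh1 was barely detected. It had 1, 13 and 6 counts in LPS-treated siEhd1 libraries, 12, 22 and 9 in LPS-treated siControl libraries, 6, 1 and 2 in resting siEhd1 libraries and 4, 13 and 2 in resting siControl libraries. In each of the 4 groups the library with the most Serpinh1 counts was also the one with the highest stromal sum. Its part in the Serpinh1 level was not tested. No comparison was called, with log2 fold changes for siEhd1 of -1.02 after LPS (SE 0.64, adjusted p = 0.395) and -1.09 in resting cells (SE 0.90, adjusted p = 0.402). Leaving out 1 library moved them between -1.88 (without LPS-treated siEhd1 replicate 2) and -0.49 (without LPS-treated siEhd1 replicate 1) after LPS, and between -2.02 (without resting siEhd1 replicate 1) and -0.04 (without resting siControl replicate 2) in resting cells. With LPS its log2 fold change was 1.38 with siEhd1 (adjusted p = 0.183) and 1.31 with siControl (adjusted p = 0.081). The siEhd1 value was 1.91 and passed without LPS-treated siEhd1 replicate 1 (adjusted p = 0.0432). The siControl value passed without that library too (0.0466), with the replicate block (0.0335) and without resting siControl replicate 2 (2.36, adjusted p = 0.0122). Otherwise a difference between groups was not detectable at this depth.

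**Figure D4:**
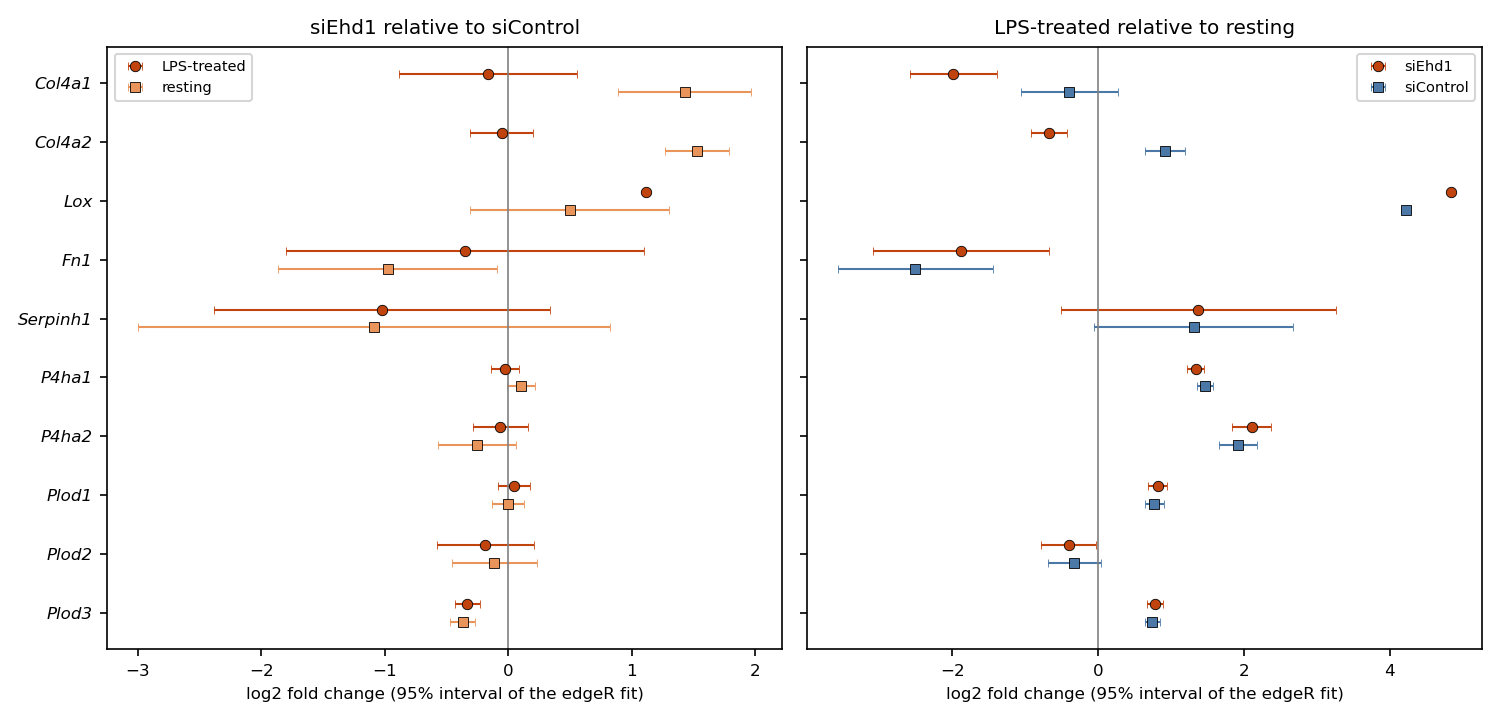
Log2 fold changes of the 10 genes with 95% intervals from the edgeR fit. Left, siEhd1 relative to siControl in LPS-treated cells (circles) and resting cells (squares). Right, LPS-treated relative to resting cells with siEhd1 (circles) and siControl (squares). Lox has an interval in resting cells only, since its other effects were described without a test. The collagen IV genes have siRNA effects of 1.43 and 1.53 in resting cells and effects near 0 after LPS, and Plod3 has negative effects in both states.

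Leaving Lox aside, 4 of the other 9 genes were called higher with LPS in siEhd1 cells (32.9% of all genes tested) and 3 lower (34.0%, and 67.0% in either direction). In siControl cells 5 were called higher (34.8%) and 1 lower (34.0%, and 68.8% in either direction). Without overlap between groups were, Lox included, 5 higher genes with siEhd1 (35.2% of all genes) and 4 lower (36.0%), and 6 higher genes with siControl (35.5%) and 1 lower (35.3%). The median LPS effect over the 10 genes was 0.80 with siEhd1 and 0.84 with siControl, against -0.02 and -0.01 over all genes tested.

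Levels between genes were compared per kilobase of exon. Plod1, Plod3 and P4ha1 held the first 3 places in all 4 groups. In LPS-treated siEhd1 cells they stood at 110.6, 56.0 and 55.7 CPM per kb, and Plod3 and P4ha1 overlapped there. In LPS-treated siControl cells they stood at 106.8, 70.5 and 56.7 CPM per kb without overlap. In resting siEhd1 cells the values were 62.6, 32.6 and 22.0 CPM per kb, and in resting siControl cells 62.6, 42.0 and 20.5 CPM per kb, again without overlap. P4ha2 came next after LPS, at 6.33 CPM per kb with siEhd1 and 6.62 with siControl. Collagen IV chains were far below Plod1, Plod3 and P4ha1, with Col4a2 at 1.52 CPM per kb in LPS-treated siEhd1 cells, 1.58 in LPS-treated siControl cells, 2.42 in resting siEhd1 cells and 0.84 in resting siControl cells. In resting siEhd1 cells Col4a2 stood above P4ha2 (1.47) and Plod2 (0.92), and after LPS it stood above Plod2, at 0.70 with siEhd1 and 0.79 with siControl. Serpinh1 stood last in every group except resting siControl, where Lox did.

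Other collagen chains and basement membrane genes shared only part of the collagen IV pattern. Of 25 other collagen chain genes 11 were tested, and with siEhd1 in resting cells 3 rose, 0 fell and 8 did not pass the test, against 14.0% and 14.2% of all genes. The minor collagen IV chains Col4a5 (53.39 CPM with siEhd1 and 39.54 CPM with siControl, log2 0.43, adjusted p = 0.000223) and Col4a6 (6.53 CPM with siEhd1 and 4.36 CPM with siControl, 0.58, adjusted p = 0.00608) were among them. The third was Col18a1, the basement membrane collagen that gives rise to endostatin (216.0 CPM with siEhd1 and 154.1 CPM with siControl). After LPS 1 of the 11 rose with siEhd1 (4.44% of all genes) and 0 fell (4.10%). This was Col18a1 (240.5 CPM with siEhd1 and 156.3 CPM with siControl, log2 0.62, adjusted p = 3.43e-06). With LPS in siEhd1 cells 1 rose, Col18a1 (0.16), and 3 fell, Col4a5 (-3.30), Col4a6 (-4.16) and Col15a1 (-2.77). With library totals alone, without LPS-treated siEhd1 replicate 2 or without resting siEhd1 replicate 3, 0 rose. In siControl cells 0 rose and 3 fell, Col4a5 (-2.81), Col4a6 (-4.56) and Col15a1 (-2.50). Col4a6 had at most 0.4589 CPM in LPS-treated siEhd1 and 0.2854 CPM in LPS-treated siControl libraries. It passed the low-count filter through its resting libraries only, which fixes its direction, so its fall is a description. Of all genes, 32.9% rose and 34.0% fell with siEhd1, and 34.8% rose and 34.0% fell with siControl. Of 22 basement membrane partners 7 were tested. With LPS 3 rose and 2 fell in siEhd1 cells, and 4 rose and 2 fell in siControl cells. Nid2, a nidogen that links collagen IV and laminin, stood at 2.53 CPM with siEhd1 and 1.11 CPM with siControl in resting cells (1.18, adjusted p = 6.17e-05), with a difference between states of -0.85 (adjusted p = 0.0447). That difference lost its call with DESeq2, without the low-count filter, with either replicate block and without any 1 library other than resting siControl replicate 1. The laminin chain gene Lamc1 fell slightly with siEhd1 in resting cells (-0.17), a call lost without resting siEhd1 replicate 1 or 3 or resting siControl replicate 2 or 3, and no partner was called between siRNAs after LPS.

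The relatives of Lox and the partners of the hydroxylases were followed in the same way. Of 4 lysyl oxidase-like genes 2 were tested, and both rose with LPS, Loxl2 (2.44 with siEhd1 and 2.02 with siControl) and Loxl3 (0.69 with siEhd1 and 0.80 with siControl). Over all genes, 32.9% rose with LPS in siEhd1 cells and 34.8% in siControl cells. Neither Loxl2 nor Loxl3 was called between siRNAs. Of 19 tested genes of collagen folding, processing and export, 10 rose and 4 fell with LPS in siEhd1 cells, and 9 rose and 4 fell in siControl cells. Called in either direction were thus 14 and 13 of 19, near the 67.0% and 68.8% of all genes tested. Bmp1, which is among the 19, had at most 0.1708 CPM in resting siEhd1 and 0.1316 CPM in resting siControl libraries. It passed the low-count filter through its LPS-treated libraries only, which fixes its direction. P4hb, the partner subunit of P4ha1 and P4ha2, stood at 967 CPM in LPS-treated siEhd1 cells, 996.9 CPM in LPS-treated siControl cells, 360.6 CPM in resting siEhd1 cells and 364.9 CPM in resting siControl cells. It rose with LPS by 1.42 with siEhd1 and 1.45 with siControl. Between siRNAs, 0 of these 19 rose and 1 fell after LPS, and 1 rose and 3 fell in resting cells, against 4.44% and 4.10% of all genes after LPS and 14.0% and 14.2% in resting cells. The secretory pathway factor Creb3l2 was the one lower in both states (-0.45 after LPS, adjusted p = 0.00205, and -0.55 in resting cells, adjusted p = 5.24e-05).

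More hypoxia-inducible genes rose than fell with LPS, and both prolyl hydroxylase subunits rose. Of 24 tested, 16 rose and 5 fell with LPS in siEhd1 cells, and 17 rose and 5 fell in siControl cells, with medians of 1.15 with siEhd1 and 1.42 with siControl, against -0.02 and -0.01 over all genes tested. Of all genes tested, 32.9% rose and 34.0% fell with siEhd1, and 34.8% rose and 34.0% fell with siControl. Pfkfb3, which drives glycolysis, rose by 4.45 with siEhd1 and 4.43 with siControl, and Hif1a, which encodes a subunit of the oxygen-regulated factor itself, by 2.85 with siEhd1 and 3.19 with siControl. Ndrg1, in contrast, averaged 40.41 CPM after LPS and 109.2 CPM in resting cells with siEhd1, and 43.27 and 150.1 CPM with siControl. The genes most like P4ha1 over the 12 libraries were Bnip3 (Pearson r 0.9987), Slc16a3 (0.9985) and Hif1a (0.9982), a likeness that follows the difference between states. Between siRNAs, 0 of the 24 rose and 2 fell after LPS, Pfkfb3 (-0.28) and Hif1a (-0.19), against 4.44% and 4.10% of all genes. In resting cells 8 rose, Pdk1 (0.71) among them, and 7 fell, Ndrg1 (-0.46) among them, against 14.0% and 14.2% of all genes (4 fell with library totals alone or DESeq2). P4ha1 and P4ha2 passed in neither state.

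Receptors for collagen and fibronectin changed in both directions. Of 14 tested, 2 rose and 0 fell with siEhd1 after LPS (1 rose without the low-count filter or with either replicate block), and 6 rose and 1 fell in resting cells. Over all genes, 4.44% rose and 4.10% fell after LPS, and 14.0% rose and 14.2% fell in resting cells. Itgav, an integrin subunit of fibronectin receptors, rose in both states (0.31 after LPS and 0.24 in resting cells). With LPS 5 rose and 6 fell in siEhd1 cells (32.9% and 34.0% of all genes). In siControl cells 6 rose and 5 fell (34.8% and 34.0%). There the collagen-binding integrin subunit gene Itga1 rose by 5.08 and Itgb3 fell by 5.79. Itgb3 had at most 0.4015 CPM in LPS-treated siEhd1 and 0.4956 CPM in LPS-treated siControl libraries. It passed the low-count filter through its resting libraries only, which fixes its direction. The genes most like Col4a1 over the 12 libraries were Sapcd2 (Pearson r 0.9475), Fam64a (0.9428) and Gpr82 (0.941), and those most like Fn1 were Cnnm2 (0.9638), Tchh (0.9576) and Ldoc1l (0.9538).

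Markers of other cells moved beside the collagen genes in some comparisons. With siEhd1 in resting cells, 0 of 7 tested stromal markers rose and 1 fell, Pdgfrb (-0.81, adjusted p = 0.0476). That call was lost with library totals alone, DESeq2 and limma-voom and without any 1 of 7 libraries, 5 of them resting. The stromal sums overlapped at 3.80 to 9.14 CPM with siEhd1 and 5.27 to 11.36 CPM with siControl. Endothelial markers summed to 220.4 to 242.5 CPM with siEhd1 and 284.0 to 295.3 CPM with siControl, with 0 of 5 tested higher and 2 lower. Col4a1 and Col4a2 were higher in the same siEhd1 libraries. The platelet factor gene Pf4 rose there (0.99), and megakaryocyte and platelet sums were 19.73 to 20.11 CPM with siEhd1 and 10.79 to 12.41 CPM with siControl. Of 10 macrophage markers 0 rose and 6 fell, among them Fcgr1 (-0.80) and Mertk (-0.60). Over all genes, 14.0% rose and 14.2% fell in this comparison. Their part in the collagen IV levels was not tested.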

How the data were processed

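The authors deposited raw read counts per gene symbol in 2 tables, 1 for LPS-treated and 1 for resting libraries, and 0 columns were left unused. The submitters' processing notes name, with no role or order, build mm10, STAR 2.7.6a, featureCounts 2.20.0, FastQC 0.10.1, Trim Galore 0.6.3, cutadapt, R 4.4.2 and DESeq2 1.46.0. Per the labels' protocols, an RNeasy kit and polyA enrichment were used. Not given in the sources used here are the annotation, strand setting, treatment of multi-mapping reads, LPS dose and duration, siRNA sequences and transfection time.

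Tests on the counts used R 4.3.3, edgeR 4.0.16 and limma 3.58.1: filterByExpr by group (minimum count 10, minimum total 15), TMM factors, robust quasi-likelihood tests over all 12 libraries with 1 mean per group, and Benjamini-Hochberg adjustment over 12164 genes, called at 0.05. The filter removed at most 0.03944% of a library's counts. The script was tested on simulated data. Intervals are at 95% and come from the fit. No replicate pair agreed within counting noise (chi-square over its degrees of freedom 2.996 to 23.56), so each library was counted once. Positions and exon lengths came from GENCODE on GRCm38, and 7 of the 10 genes matched the RefSeq promoter table.

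The genes, gene lists and tests were chosen with earlier results of these data known. Named besides the 10 genes were, from each other list, up to 4 called genes of smallest p with a mean of at least 1 CPM, and the 3 genes most like Col4a1, Lox, Fn1 and P4ha1. Bmp1 is named for its low resting counts. Alternatives were RLE factors, library totals alone, no low-count filter, DESeq2 1.42.0, limma-voom, each table alone, replicate blocks and leaving out each library.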

Additional observations from a re-analysis of the deposited data

Results flagged for a closer look

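The effect of siEhd1 on the collagen IV genes differed between states by the interaction term of the fit over all genes. The log2 effect after LPS minus that in resting cells was -1.594 for Col4a1 and -1.585 for Col4a2. The Col4a1 value rests on few counts, and its call was lost in 13 of 19 alternatives, whereas that of Col4a2 was kept in all 19.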

How the results depend on the processing

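Across 20 alternatives, the resting calls of Col4a1 and Col4a2 and the Plod3 calls in both states were kept. The Col4a2 difference between states was kept in all 19 alternatives that give a value for it. With limma-voom, 2 of the 10 genes were lower with siEhd1 in resting cells (1 to 2 when 1 library was left out). For the difference between states, 1 gene was lower without the low-count filter, with the replicate block and with the replicate block within each table (1 to 2 leaving out 1 library). With library totals alone, 2 were lower with LPS in siControl cells (1 to 2 leaving out 1 library). Genes called between siRNAs after LPS, over all genes tested, were 607 to 1100 leaving out 1 library, lowest without LPS-treated siEhd1 replicate 1, against 1039 in all. For the difference they were 453 to 783, against 735, lowest without resting siEhd1 replicate 1 (453) and resting siControl replicate 1 (473).

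Signs turned for some effects that were called in no setting. Leaving out 1 library, siRNA effects after LPS ran from -0.499 to 0.098 for Col4a1, -0.115 to 0.024 for Col4a2, -0.674 to 0.446 for Fn1, -0.043 to 0.006 for P4ha1 and -0.199 to 0.04 for P4ha2. In resting cells they ran from -0.055 to 0.051 for Plod1 and -0.249 to 0.041 for Plod2, and the replicate block gave -0.001 for Plod1. Differences ran from -0.002 to 0.105 for Plod1, -0.225 to 0.065 for Plod2 and -0.98 to 1.002 for Serpinh1, which was -0.455 with limma-voom, -0.027 with the replicate block and -0.014 with the block within tables. The cause was not tested.

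Correlations of deviations between siEhd1 and siControl libraries of the same replicate number, within a state, ran from -0.299 to 0.201. Resting libraries of different numbers reached 0.344, and not every library correlated best with its own number. With 3 libraries a group, this check cannot show whether libraries were paired. With the replicate block, 884 genes were called between siRNAs after LPS, 3164 in resting cells and 637 for the difference, against 1039, 3432 and 735 without. The Col4a1 difference had adjusted p = 0.0524 with the block. Library totals alone made 28.6% of LPS calls with siEhd1 and 32.5% with siControl higher genes, against 49.2% and 50.6%, and 41.4% of calls for the difference, against 51.6%. The fit of each table alone gives no value for the difference or for LPS. Low counts limit Lox in resting cells and Serpinh1 in all groups.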
